A study of Rattus norvegicus with 8 samples.

Results

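The 8 genes described here encode carriers that reclaim sugars and organic anions in the kidney: Slc5a1, Slc5a2, Slc5a10 and Slc2a2 for sugars, Slc5a8 and Slc5a12 for monocarboxylates, and Slc13a1 and Slc13a3 for sulfate and dicarboxylates. They were chosen by function, with earlier results of these data known. Their probes were found by matching the RefSeq accession of each non-control probe to the gene. The match gave 9 probes, 1 for each of 7 genes and 2 for Slc5a12, out of 30367 probes and 15637 named genes on the array. All 8 genes were well above background on all 8 arrays and entered the comparison of 12411 genes.

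Total RNA was taken on day 28 from kidneys of male rats, all labelled as 10 weeks old. The control group had received saline and the treated group 30 mg/kg colistin, with 4 samples in each and 1 Cy3-labelled sample per array. Colistin is a polymyxin antibiotic that injures the renal tubule. The labels give no strain, route or dosing schedule, call the tissue kidney although the title names injured tubules, and do not state that each sample came from its own animal, so the p-values measure only the spread between these samples, which may be technical. In such bulk RNA, fewer cells of a type and less RNA per cell cannot be told apart.

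The proximal tubule takes up filtered glucose across its brush border by cotransport with sodium and releases it to the blood by facilitated exit across the basolateral membrane. SGLT2, the product of Slc5a2, serves the early segments with low affinity and high capacity, and SGLT1, the product of Slc5a1, serves the late segments with high affinity. Lactate and other monocarboxylates are reclaimed by a parallel pair of sodium-coupled carriers, SMCT2 (Slc5a12), found from the early segment on, and SMCT1 (Slc5a8), found late. The dicarboxylate carrier NaDC3 (Slc13a3) lies in the basolateral membrane, where the dicarboxylates it takes up are exchanged for organic anions.

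No member passed the test in either direction. With limma and Benjamini-Hochberg adjustment over all genes, 0 of 8 members had an adjusted p under 0.05, against 2.00% of all genes tested, and 4 of 8 had an unadjusted p under 0.05, against 22.7% of all genes. The 4 values of one group lay wholly outside those of the other for 2 of 8 members, against 18.6% of all genes. These were Slc2a2, higher after colistin (6.89% of all genes were so separated), and Slc13a3, lower after colistin (11.7% of all genes). With so few members these shares do not set them apart from other genes. The median log2 fold change of the members was -0.84, with 3 estimates positive and 5 negative. That of all genes was -0.14, with 5596 positive and 6815 negative.

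The promoters of the 2 members whose groups did not overlap are shown because the direction of those genes differed. The sequences are the 250 bases before the start of the gene on its own strand, from RefSeq on assembly GRCr8, at chr2:113540120-113540369 (plus strand) for Slc2a2 and chr3:174623894-174624143 (minus strand) for Slc13a3, and capitals mark every match to the motifs named next.
Slc2a2: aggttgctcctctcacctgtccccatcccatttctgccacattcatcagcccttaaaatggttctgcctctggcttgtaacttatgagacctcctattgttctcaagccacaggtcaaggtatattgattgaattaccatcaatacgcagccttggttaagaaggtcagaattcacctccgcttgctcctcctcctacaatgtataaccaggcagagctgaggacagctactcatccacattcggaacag
Slc13a3: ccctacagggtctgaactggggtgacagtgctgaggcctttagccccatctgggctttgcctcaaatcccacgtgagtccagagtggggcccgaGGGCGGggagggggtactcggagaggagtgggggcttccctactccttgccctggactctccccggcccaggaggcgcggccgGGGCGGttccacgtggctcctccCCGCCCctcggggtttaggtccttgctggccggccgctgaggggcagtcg

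The motifs searched, on both strands, were CAAAGTCCA (an HNF4 motif), TATAAA (the TATA box) and CCGCCC (the GC box), and none contains another. The GC box was found 3 times in the Slc13a3 window and in no other member, and 38.9% of 21851 protein-coding promoters of the same length held it. The TATAAA sequence, at any position and on either strand, was found in the Slc13a1 window alone among members, against 12.1% of all promoters. Whether that match serves as a TATA box was not tested. The HNF4 motif (0.348% of all promoters) was in none of the 8 windows. The members' promoters do not share a base composition: the GC content was 36.4% for Slc13a1, 39.6% for Slc5a12, 47.2% for Slc2a2, 53.2% for Slc5a10, 54.8% for Slc5a2, 62.8% for Slc5a1, 66.8% for Slc5a8 and 69.2% for Slc13a3, with a median of 54% over all promoters. The counts of the dinucleotide CpG ran from 0 in Slc5a12 to 25 in Slc5a8.

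Each value below is the log2 processed signal of the gene's probe minus the log2 of the 75th percentile of its array, so it compares arrays for 1 gene and not genes with each other. The saline arrays were dimmer, with a 75th percentile of 156 to 197 against 271 to 317 on colistin arrays, and the scaling sets only that percentile equal. The plot of each member by array shows every value.

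**Figure D1:**
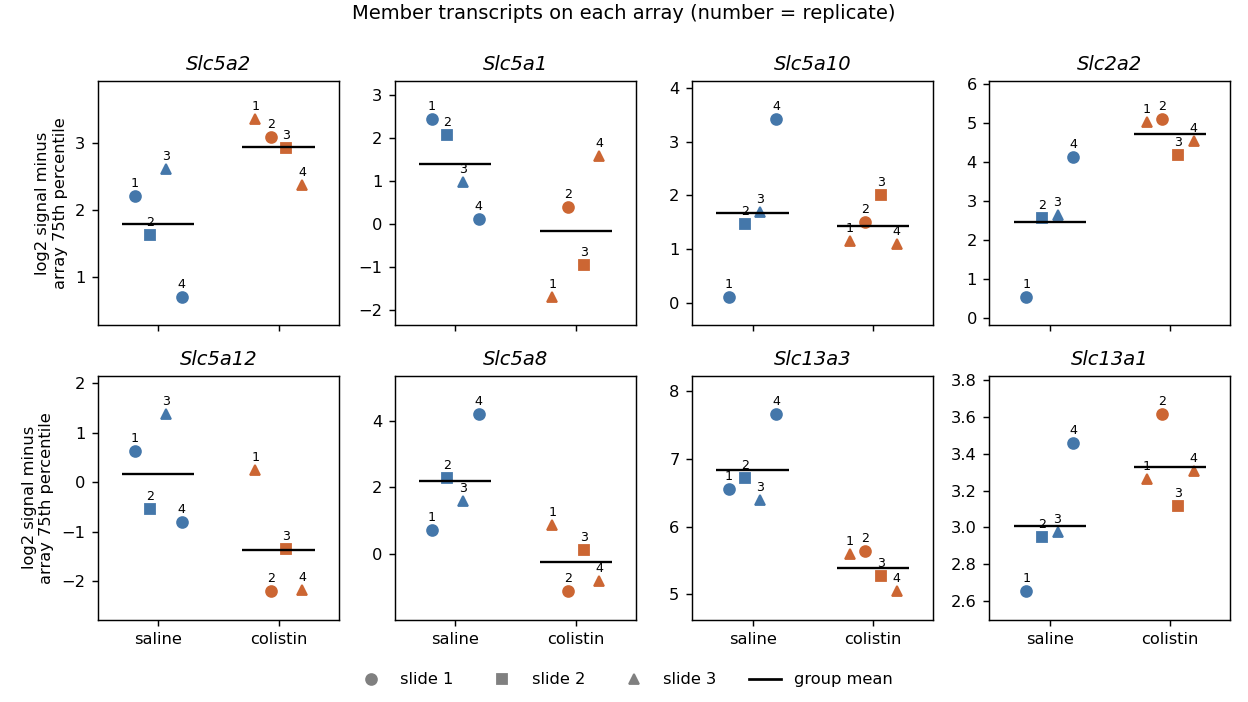
Log2 signal of each member relative to the 75th percentile of its array (vertical axis) on the 4 saline (blue) and 4 colistin (orange) arrays, with the replicate number beside each point, the slide as its shape and the group mean as a line. Slc2a2 and Slc13a3 are the 2 genes without overlap, and saline array 4 is the highest or the lowest saline point in every panel.

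Slc5a2, the early-segment glucose cotransporter, had log2 values of 2.21, 1.64, 2.61 and 0.71 on saline arrays 1 to 4 and of 3.36, 3.09, 2.92 and 2.37 on colistin arrays 1 to 4. The groups overlapped through saline array 3 and colistin array 4, and saline array 4 was the lowest of all. The estimate was 1.14 ± 0.47 (log2 fold change ± SE, n = 4 per group; adjusted p = 0.2, limma with Benjamini-Hochberg adjustment), and without saline array 4 it was 0.78.

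Slc5a1, the late-segment glucose cotransporter, had log2 values of 2.44, 2.08, 0.97 and 0.11 on saline arrays 1 to 4 and of -1.69, 0.41, -0.96 and 1.58 on colistin arrays 1 to 4. Colistin arrays 2 and 4 lay among the saline values, while colistin arrays 1 and 3 lay below all of them. The estimate was -1.57 ± 0.81 (adjusted p = 0.278, limma with Benjamini-Hochberg adjustment), with a 95% interval from -3.42 to 0.29. Colistin arrays spanned 3.27 log2 units for this gene, the widest range of any member in that group.

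Slc5a10, which encodes a sodium-coupled carrier of mannose and fructose, had log2 values of 0.12, 1.46, 1.70 and 3.42 on saline arrays 1 to 4 and of 1.15, 1.50, 2.01 and 1.09 on colistin arrays 1 to 4. All colistin values lay inside the saline range. The estimate was -0.23 ± 0.65 (adjusted p = 0.85, limma with Benjamini-Hochberg adjustment), and it turned to 0.35 without saline array 4.

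Slc2a2, which encodes GLUT2, the facilitated carrier of basolateral glucose exit, had log2 values of 0.55, 2.56, 2.64 and 4.13 on saline arrays 1 to 4 and of 5.02, 5.09, 4.19 and 4.53 on colistin arrays 1 to 4. Every colistin value was above every saline value, but saline array 4 lay just below the lowest colistin array and saline array 1 lay far below the rest. The estimate was 2.24 ± 0.70 (adjusted p = 0.137, limma with Benjamini-Hochberg adjustment), the largest positive one among members, with a 95% interval from 0.63 to 3.84. The exact two-sided permutation of the 8 arrays gave p = 0.0286, the smallest that 4 against 4 allows and the p of any gene without overlap. The estimate ran from 1.60 without saline array 1 to 2.79 without saline array 4, and with both left out it was 2.11 (adjusted p = 0.0726, limma with Benjamini-Hochberg adjustment). Within slides 1, 2 and 3, each of which held both groups, the difference was 2.75, 1.63 and 2.14. Fitting slide as a block gave an estimate of 2.22 (adjusted p = 0.259).

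Slc5a12, the monocarboxylate cotransporter found from the early segment on, had log2 values of 0.63, -0.53, 1.38 and -0.80 on saline arrays 1 to 4 and of 0.24, -2.21, -1.36 and -2.18 on colistin arrays 1 to 4. Colistin array 1 lay within the saline range and the other 3 lay below it. The estimate was -1.55 ± 0.70 (adjusted p = 0.232, limma with Benjamini-Hochberg adjustment). The dimmer second probe of the gene gave -1.30 ± 0.78, with its lowest saline value, -3.47, on saline array 4 and the others between -1.22 and -1.14.

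Slc5a8, the late-segment cotransporter of lactate, short-chain fatty acids and nicotinate, had log2 values of 0.71, 2.28, 1.60 and 4.21 on saline arrays 1 to 4 and of 0.87, -1.12, 0.14 and -0.81 on colistin arrays 1 to 4. Only saline array 1 and colistin array 1 overlapped. The estimate was -2.43 ± 0.79 (adjusted p = 0.145, limma with Benjamini-Hochberg adjustment), the most negative among members, with a 95% interval from -4.23 to -0.62. It was -1.76 without saline array 4 and -2.93 without saline array 1. Within slides 1, 2 and 3 the difference was -3.58, -2.14 and -1.57.

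Slc13a3, the basolateral dicarboxylate cotransporter, had log2 values of 6.55, 6.72, 6.39 and 7.66 on saline arrays 1 to 4 and of 5.59, 5.64, 5.27 and 5.04 on colistin arrays 1 to 4. Every colistin value was below every saline value, and saline array 4 was the highest. The estimate was -1.45 ± 0.37 (adjusted p = 0.092, limma with Benjamini-Hochberg adjustment; exact permutation p = 0.0286), with a 95% interval from -2.29 to -0.61. Within slides 1, 2 and 3 the difference was -1.47, -1.45 and -1.08, and it was -1.17 without saline array 4.

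Slc13a1, the brush-border sulfate cotransporter, had log2 values of 2.65, 2.95, 2.97 and 3.46 on saline arrays 1 to 4 and of 3.26, 3.62, 3.12 and 3.31 on colistin arrays 1 to 4. Saline array 4 lay among the colistin values. The estimate was 0.32 ± 0.30 (adjusted p = 0.531, limma with Benjamini-Hochberg adjustment), with a 95% interval from -0.36 to 1.002, the narrowest interval of the 8.

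**Figure D2:**
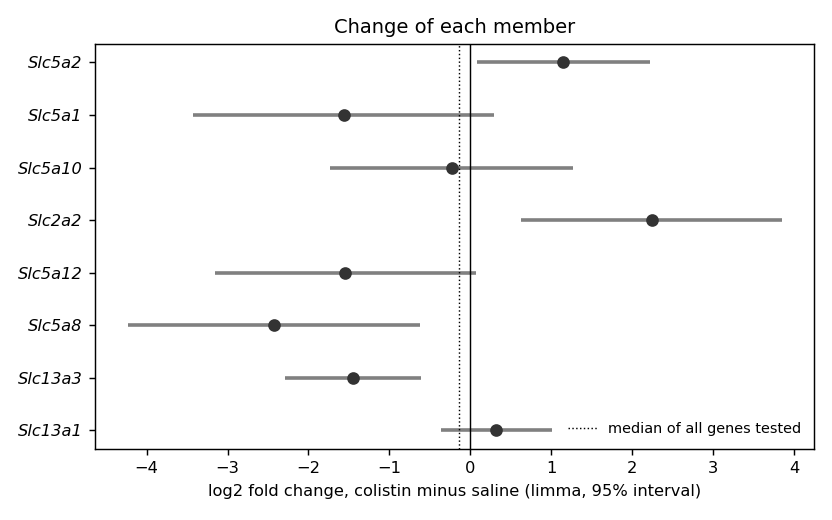
Log2 fold change of each member, colistin minus saline (horizontal axis), with limma's 95% interval. The intervals of Slc2a2 and Slc5a2 lie above 0 and those of Slc5a8 and Slc13a3 below it before adjustment, and the dotted line is the median of all genes tested, -0.14.

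With normexp background correction on the 75th percentile scaling, a setting tried only once the data had been seen, 3 members passed: Slc2a2 (2.31, adjusted p = 0.0329), Slc5a2 (1.21, adjusted p = 0.0436) and Slc13a3 (-1.30, adjusted p = 0.0321, all limma with Benjamini-Hochberg adjustment). That setting called 3390 of the 12411 genes tested and moved the median of all genes to -0.34. Beside that share of all genes, 3 members do not stand apart from other genes. With normexp and quantile scaling Slc13a3 alone passed (-1.34, adjusted p = 0.0208, limma with Benjamini-Hochberg adjustment), and 571 of the 12411 genes were called. Over all 19 alternatives the adjusted p ran from 0.0329 to 0.266 for Slc2a2, from 0.0436 to 0.387 for Slc5a2 and from 0.0208 to 0.225 for Slc13a3 (limma with Benjamini-Hochberg adjustment).

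The spread among saline arrays was wide for these genes. Their median SD was 1.04 on saline arrays and 0.42 on colistin arrays, where the medians over all genes were 0.84 and 0.59. Saline array 4 gave the highest saline value for Slc5a8, Slc5a10, Slc2a2, Slc13a1 and Slc13a3 and the lowest for Slc5a1, Slc5a2 and Slc5a12, so it was at an end of the saline range for 8 of 8 members, against 60.5% of all genes. Saline array 1 was the lowest saline array for 4 members and the highest for 1. Saline array 2 was at neither end for any member.

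The early-segment members had estimates of both signs. Slc5a2 and Slc2a2 had positive estimates and Slc5a12 a negative one, with a median of 1.14 over the 3 genes, while Slc5a1 and Slc5a8, the late members, were both negative, with a median of -1.997. None of the 5 passed the test. Slc5a10, Slc13a1 and Slc13a3 were assigned to no segment.

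Each early carrier was set against its late paralogue within each array. The log2 value of Slc5a2 minus that of Slc5a1 was -0.23, -0.44, 1.64 and 0.60 on saline arrays 1 to 4 and 5.05, 2.69, 3.88 and 0.79 on colistin arrays 1 to 4. Of the colistin arrays 3 lay above all saline arrays, and colistin array 4 lay among them. The mean was 0.39 ± 0.94 (SD, n = 4) on saline and 3.10 ± 1.82 (SD, n = 4) on colistin arrays. The means differed by 2.71 log2 units, which did not pass (exact two-sided permutation p = 0.0571, or 0.114 after Benjamini-Hochberg adjustment over the 2 pairs compared). The difference within slides 1, 2 and 3 was 2.51, 4.32 and 1.28. With 1 array left out it ran from 2.06 (without colistin array 1) to 3.48 (without colistin array 4), with exact permutation p from 0.0286 to 0.114 and adjusted p from 0.0571 to 0.229. The smallest exact permutation p possible was 0.0286, both with all arrays and with 1 left out. With the p of the other pair as high as it was, that is 0.0571 after adjustment. No difference of this pair could therefore have passed after adjustment, and the adjusted values do not show whether it is robust.

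The monocarboxylate pair did not pass either. Slc5a12 minus Slc5a8 was -0.08, -2.82, -0.22 and -5.01 on saline arrays 1 to 4 and -0.63, -1.09, -1.50 and -1.37 on colistin arrays 1 to 4, so that all colistin values lay inside the saline range. The difference was 0.88 (exact permutation p = 0.514, also 0.514 after adjustment), and it was -0.11 without saline array 4. It was 1.45, 1.32 and -0.79 within slides 1, 2 and 3.

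**Figure D3:**
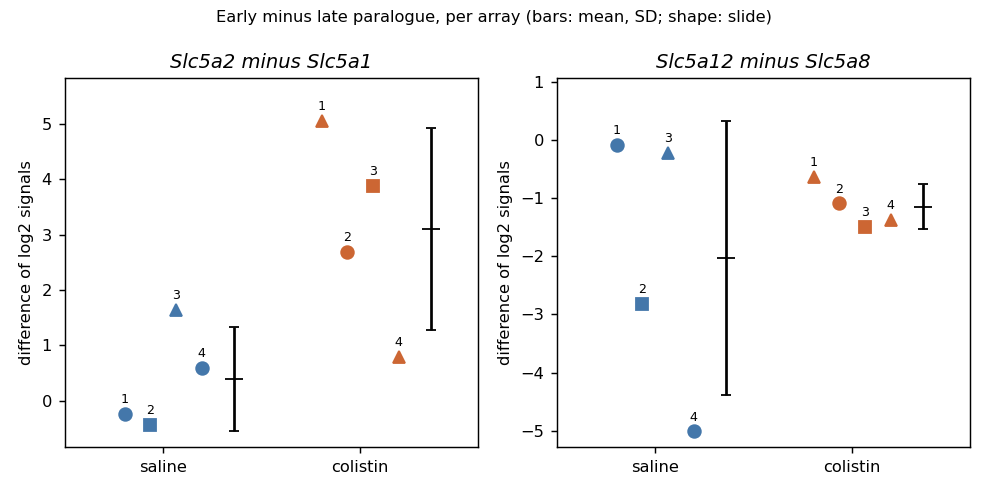
Difference of log2 signals between the early and the late paralogue on each array, with replicate numbers, slides as shapes and the mean and SD of each group as bars. In the glucose pair 3 colistin arrays lie above all saline arrays and colistin array 4 does not, and in the monocarboxylate pair the colistin points lie within the saline range.

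The genes around these carriers were taken from lists of other sugar carriers, facilitated monocarboxylate carriers, dicarboxylate and sulfate carriers, partners and transcription factors, sodium pump subunits, and enzymes of glucose and lactate. Of 67 listed genes 56 were tested. Of these, 1 was called higher (1.46% of all genes were) and 2 were called lower (0.540% of all genes were). The median was -0.50, with 15 estimates positive and 41 negative. Over all genes tested the median was -0.14, with 5596 estimates positive and 6815 negative.

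Pck1, the gluconeogenic enzyme phosphoenolpyruvate carboxykinase, had log2 values of 4.60 to 6.39 on saline arrays and of -0.12 to 1.19 on colistin arrays. It fell by 4.87 ± 0.47 (adjusted p = 0.00411, limma with Benjamini-Hochberg adjustment), and kept its call in each of the 8 fits with an array removed, as it did when slide was a block (adjusted p = 0.0291). G6pc1, the glucose-6-phosphatase that frees the glucose which GLUT2 carries out, had values of 3.17 to 5.51 on saline arrays and 0.61 to 2.11 on colistin arrays. It fell by 2.81 ± 0.55 (adjusted p = 0.046), and its other probe gave -2.13, but it passed in 1 of the 8 fits with an array removed and had an adjusted p of 0.143 when slide was a block. The other 9 enzymes did not pass, and of all 11 tested 10 had negative estimates, Ldha (0.77) being the exception. So Slc2a2 and G6pc1, whose products act in sequence, had estimates of opposite sign.

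Among 11 other sugar and SLC5 carriers tested, the urate and sugar carrier gene Slc2a9 passed. Its log2 values were -4.64 to -3.58 on saline arrays and -1.18 to 2.43 on colistin arrays, and it rose by 4.20 ± 0.74 (adjusted p = 0.0322, limma with Benjamini-Hochberg adjustment). It passed in 2 of the 8 fits with an array removed and not when slide was a block (adjusted p = 0.118) or with normexp and quantile scaling (adjusted p = 0.0649), and with normexp and 75th percentile scaling it gave 2.09 (adjusted p = 0.0353). The widespread glucose carrier gene Slc2a1 gave 0.19 ± 0.69 (adjusted p = 0.885) and the fructose carrier gene Slc2a5 gave -0.40 ± 0.94 (adjusted p = 0.821).

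None of 13 facilitated monocarboxylate carriers and chaperones passed, and 10 were negative. Slc16a1, which encodes the lactate carrier MCT1, gave 1.29 ± 1.29 (adjusted p = 0.564), with saline array 4 not well above background. None of 8 dicarboxylate, citrate and sulfate carriers passed either. Slc13a2, which encodes the apical citrate carrier NaDC1, gave -1.43 ± 0.77 (adjusted p = 0.294).

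Among 10 partners and transcription factors tested, 0 passed. Hnf4a, which encodes a nuclear receptor of proximal tubule identity, had log2 values of 2.13, 2.12, 1.65 and 2.49 on saline arrays 1 to 4 and of 0.55, 0.38, 1.29 and -0.14 on colistin arrays 1 to 4, without overlap. Its estimate was -1.58 ± 0.38 (adjusted p = 0.0832, limma with Benjamini-Hochberg adjustment). Pdzk1ip1, which encodes the SGLT2 partner MAP17, gave 0.52 ± 0.34 (adjusted p = 0.378), and the brush-border scaffold gene Pdzk1 gave -1.48 ± 0.61 (adjusted p = 0.203).

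**Figure D4:**
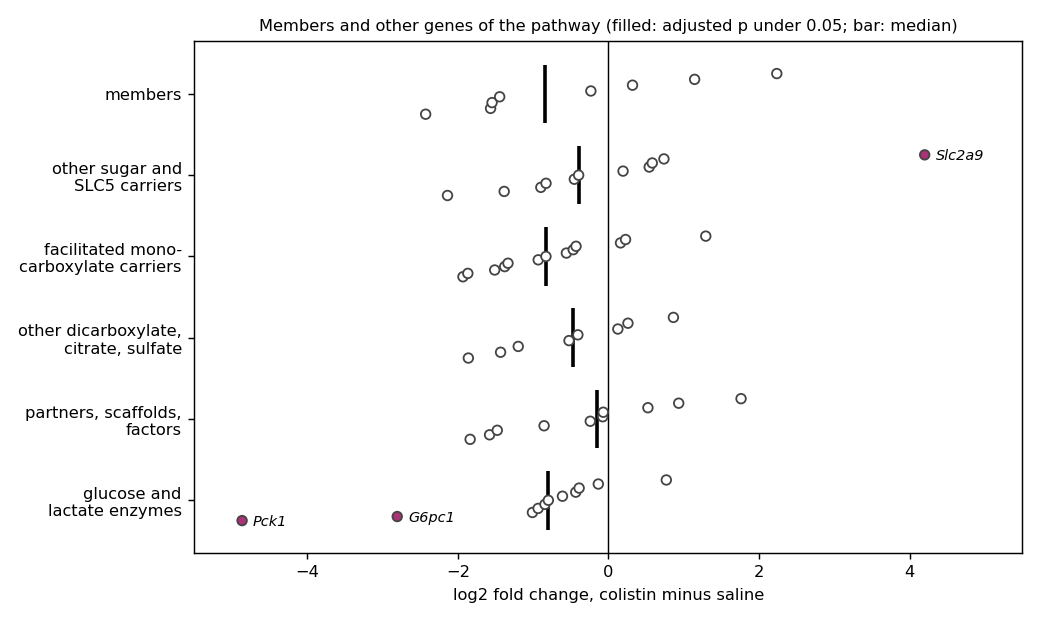
Log2 fold change, colistin minus saline, of the members and of lists of related genes (1 point per tested gene, filled where the adjusted p was under 0.05, with the list's median as a bar). Slc2a9, Pck1 and G6pc1 are the 3 filled points, and no member is filled.

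The labelled tissue was checked on markers. All 10 general proximal tubule markers were well above background on all 8 arrays. Their mean log2 value was 4.00 to 4.91 on saline arrays and 3.33 to 3.88 on colistin arrays, without overlap, and 9 of 10 had negative estimates. In that list Aqp1, which encodes a constitutive water channel, fell by 1.72 ± 0.29 (adjusted p = 0.0284, limma with Benjamini-Hochberg adjustment; called in 3 of the 8 fits with an array removed, with an adjusted p of 0.122 when slide was a block and 0.0843 without saline arrays 1 and 4), the megalin gene Lrp2 gave -0.63 ± 0.31 (adjusted p = 0.265) and the phosphate cotransporter gene Slc34a1 gave -0.91 ± 0.38 (adjusted p = 0.208). Other markers moved with the groups too. Not all of them were above background on every array (5 of 6 endothelial, 3 of 6 thick ascending limb and 5 of 5 injured tubule markers were). The mean of the endothelial markers was -0.24 to 1.05 on saline and -2.57 to -1.01 on colistin arrays, that of the thick ascending limb markers was 1.32 to 2.08 and -4.13 to -0.05, and that of the injured tubule markers was -1.41 to -0.87 and 0.21 to 1.75. Of the 5 injured tubule markers 3 had positive estimates and 2 negative ones (Vcam1 -1.51 and Krt20 -0.27, neither of which passed). The means of the podocyte markers (-1.28 to -0.11 on saline and -2.44 to -2.21 on colistin arrays), of the fibroblast and pericyte markers (0.48 to 1.37 and -1.71 to -0.97), of the intercalated cell markers (-0.04 to 1.31 and -3.73 to -0.45), of the principal cell markers (-0.17 to 0.47 and -2.86 to -0.33) and of the macrophage markers (-0.53 to 0.62 and -1.73 to -0.59) were also lower on colistin arrays without overlap. The distal convoluted tubule markers overlapped (1.57 to 2.69 and -3.53 to 2.53). The part of these shifts, and of the signal level of the arrays, in the members' values was not tested.

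The genes most like the glucose cotransporters over the 8 arrays were found by Pearson's r among all other genes tested. For Slc5a2 they were Ppm1a (r = 0.978), RT1-CE10 (r = 0.963) and Parp3 (r = 0.962), and for Slc5a1 they were Btnl10 (r = 0.966), Emcn (r = 0.957) and Or2n1i (r = 0.941). These values describe the 8 arrays and share the difference between groups and the scaling. Or2n1i was well above background on 3 saline and 2 colistin arrays and Ppm1a on 3 saline and 4 colistin arrays, so their r rests partly on background values. Emcn, which encodes the endothelial sialomucin endomucin, gave -2.58 ± 1.10 (adjusted p = 0.213, limma with Benjamini-Hochberg adjustment), and none of the 6 genes passed.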

How the data were processed

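The authors deposited linear spot intensities, 1 scanner table for each array. The submitters' processing notes name Agilent Feature Extraction 10.5 as the software. Processed intensities were already corrected for background within each array, per the file headers, and were not scaled between arrays. The flags for outlying and well-above-background spots are other values written by that software and deposited with them. A table of all 8 arrays, also deposited, holds log2 values of unstated scale and centring. Its differences between columns correlated with those of the scanner values at 0.99986 or above. The median over arrays was taken for each probe, and the median of these values over probes was 0. The column medians were 0.233, 0.0232, 0.0865 and 0.196 (saline 1 to 4) and -0.113, -0.230, -0.0893 and -0.0327 (colistin 1 to 4).

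Outlier and control spots were left out, spots of a probe were averaged, and log2 values were scaled to each array's 75th percentile. Of 30367 probes, 23718 were kept because 3 or more of the 4 arrays of a group had them well above background, and the brightest kept probe stood for a gene. Accessions were matched without versions to RefSeq genes of GRCr8, which named 18643 probes. That table served for names, and coordinates are given only for promoters of that assembly. Groups were compared with limma 3.58.1 (lmFit, eBayes; R 4.3.3), two-sided, with Benjamini-Hochberg adjustment over 12411 genes and a threshold of 0.05, and paralogue pairs by exact permutation. The fit was tested on simulated data.

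The members and lists were chosen with earlier results of these data known, so no limma p was adjusted over them alone. Only the permutation p of the 2 paralogue pairs was adjusted over a chosen set, the 2 pairs. Besides the members, the rule named every passing gene of the lists, 16 fixed genes, of which some are not reported here, and the 3 genes most alike to Slc5a2 and to Slc5a1. Flags for saturation marked no spot. Alternatives were other background corrections, scalings, filters and probe rules, the deposited table, slide or replicate number as a block, and arrays left out. Normexp used median spot signals. The number of arrays limits the precision.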

Additional observations from a re-analysis of the deposited data

How the results depend on the processing

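The signs of 7 members were the same in all 19 alternatives. Slc5a10 turned to 0.35 without saline array 4, and ran from -0.75 to 0.35 with 1 array left out. The number of members that passed was 0 in each alternative except normexp with quantile scaling (1) and normexp with 75th percentile scaling (3), the latter added after the data were seen. Of the 12411 genes tested, 248 were called (73% higher), against 571 (60.9% higher) and 3390 (20.2% higher) in those 2 settings. The count was 40 with slide as a block, 143 without saline arrays 1 and 4, and 78 to 255 with 1 array left out. It was 98, 106, 110 and 78 without colistin array 1, 2, 3 and 4. The cause was not tested. With the replicate block 5 genes were called and no member. Deviations from the group means correlated at -0.02 to 0.01 between arrays of the same replicate number. These values gave no sign that the numbers pair the samples, but they do not show that the samples were unpaired. Slc5a2 minus Slc5a1 stayed positive, at 2.06 to 3.48 with 1 array left out, and Slc5a12 minus Slc5a8 ran from -0.11 to 1.53. The share of spots well above background was 69.3% to 75.8% on saline and 79.1% to 83.9% on colistin arrays, without overlap. This limits what can be read of dim genes, and all members were well above background on every array.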

Other observations

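The late proximal segment markers had a mean log2 value of 0.90 to 2.69 on saline and of 2.09 to 3.25 on colistin arrays, so that the groups overlapped. Over the 9 markers tested the median log2 fold change was 0.08. The marker Slc22a24, named here after its values were seen, had the largest estimate of the 9 and moved the mean most. It alone of the 9 passed, as higher on colistin arrays (adjusted p = 0.0369, limma with Benjamini-Hochberg adjustment). However, only 1 of 4 saline arrays had it well above background, and the size of its change is not given. Slc7a13, which encodes an aspartate and cystine carrier of the late segment, gave 0.72 ± 1.14 (adjusted p = 0.723, limma with Benjamini-Hochberg adjustment).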
